A study of Mus musculus with 15 samples.

Results

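Calcineurin, NFAT and NR4A genes were followed in mouse hematopoietic stem cells (HSCs), the rare bone marrow cells from which all blood lineages are renewed. The set held 10 of the 46133 genes in the deposited tables, taken by symbol: the calcineurin subunits Ppp3ca, Ppp3cb and Ppp3r1, the NFAT factors Nfatc1, Nfatc2 and Nfatc3, the calcineurin regulator Rcan1, and the nuclear receptors Nr4a1, Nr4a2 and Nr4a3. RNA was sequenced from 15 libraries of 100 sorted cells each. All cells were bone marrow HSCs of wild type C57BL/6 mice aged 8 to 10 weeks. In the Nifedipine group (n = 4), HSCs were cultured with nifedipine, a blocker of L-type calcium channels, and cells that had divided at most 3 times were sorted. In the Control group (n = 3), HSCs were cultured without it and sorted in the same way. In the 5-FU day4 group (n = 4), HSCs came from mice given 5-fluorouracil, a drug that kills cycling cells, and the label gives day 4. In the Untreated group (n = 4), HSCs came from mice without that drug. No dose and no length of culture is stated in the sources used here. The labels do not say whether replicates are separate mice or cultures, and the p-values therefore describe the spread among these libraries, which could be technical.

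Calcineurin is a phosphatase that is switched on by calcium and calmodulin. It consists of a catalytic A subunit, encoded by Ppp3ca, Ppp3cb or Ppp3cc, and a calcium-binding B subunit, encoded by Ppp3r1. When active, it removes phosphates from the NFAT transcription factors, which then move into the nucleus. RCAN1 binds calcineurin and limits it, and 1 of the starts of its gene is a well known target of NFAT itself. The NR4A genes encode orphan nuclear receptors that are made within minutes to hours of a stimulus, as immediate early genes, and are known targets of CREB and MEF2. In mice, NR4A receptors are known to restrain HSC proliferation.

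Each Nifedipine library held 17582453 to 22372771 exon reads, with 20145079 to 26673045 in Control, 9775640 to 17397392 in 5-FU day4 and 6171730 to 16685285 in Untreated libraries. Levels are given in CPM, the exon reads of a gene scaled to a common library total by TMM over all 15 libraries. All 12 HSC markers were detected in every group, with summed levels of 2699.5 to 2986 CPM in Nifedipine, 1785 to 1837 CPM in Control, 3835 to 4146 CPM in 5-FU day4 and 5498 to 5917 CPM in Untreated libraries. Untreated 3 and 5-FU day4 4 stood apart from their groups in 10 endothelial and stromal markers. Their sum was 403 CPM in 5-FU day4 4 and 42.3 to 57.9 CPM in the other 5-FU day4 libraries, and it was 57.8 CPM in Untreated 3 and 425 to 1658 CPM in the other Untreated libraries. The 8 erythroid markers split the Untreated group, with 1647 and 1893 CPM in Untreated 2 and 4 and 70.7 and 87.6 CPM in Untreated 1 and 3. The 12 T-cell and NK-cell markers summed to 10.2 to 12.3 CPM in Nifedipine and 20.3 to 27.6 CPM in Control libraries. Their sum was 22.8 to 28.8 CPM in 5-FU day4 and 42.7 to 50.7 CPM in Untreated libraries. Of these markers, Cd3e, Cd3g, Trac and Ncr1 had no read in any library, while Cd247, Lck, Nkg7 and Cd4 had reads in every group. In such bulk samples, fewer cells of a type and less RNA per cell cannot be told apart.

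All 10 genes were detected in every library, and all 10 passed the filter on low counts in each comparison. Levels of different genes were compared within a group by RPKM, the authors' value per exon length. In Untreated libraries Nr4a1 was the most abundant of the 10, at 26.5 ± 10.7 RPKM (SD, n = 4), and its lowest library, at 16.7 RPKM, was above every library of the other genes. It was followed there by Ppp3r1 at 14.0 ± 0.429 RPKM, Ppp3cb at 13.4 ± 0.964 RPKM, Nfatc3 at 10.3 ± 0.594 RPKM and Ppp3ca at 9.54 ± 0.897 RPKM. Nr4a2 at 4.90 ± 2.88 RPKM, Nfatc1 at 4.19 ± 0.308 RPKM and Nfatc2 at 3.09 ± 0.154 RPKM were intermediate. Rcan1 at 1.09 ± 0.192 RPKM and Nr4a3 at 0.236 ± 0.154 RPKM were lowest. In the cultured groups Nr4a1 stood near the bottom of this order, at 0.231 ± 0.0434 RPKM in Nifedipine (n = 4) and 0.323 ± 0.0424 RPKM in Control libraries (n = 3), while Ppp3r1, Ppp3cb and Nfatc3 led it at 13.2 to 26.2 RPKM on average. These values use the authors' exon lengths, which differ from the exon bases in GENCODE, at 5069 against 3509 for Nr4a1 and 5172 against 9981 for Ppp3ca. The spread between libraries also set the NR4A genes apart in the 5-FU day4 and Untreated groups. There the coefficient of variation of CPM was 40.9% to 119% for the NR4A genes and 2.10% to 16.4% for the other 7. The cultured groups did not show this for all NR4A genes. In Control it was 12.5% for Nr4a1, 15.4% for Nr4a2 and 97.9% for the scarce Nr4a3, beside 21.0% for Rcan1. In Nifedipine it was 22.8%, 8.54% and 87.6% for these NR4A genes, beside 12.8% for Nfatc2.

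**Figure D1:**
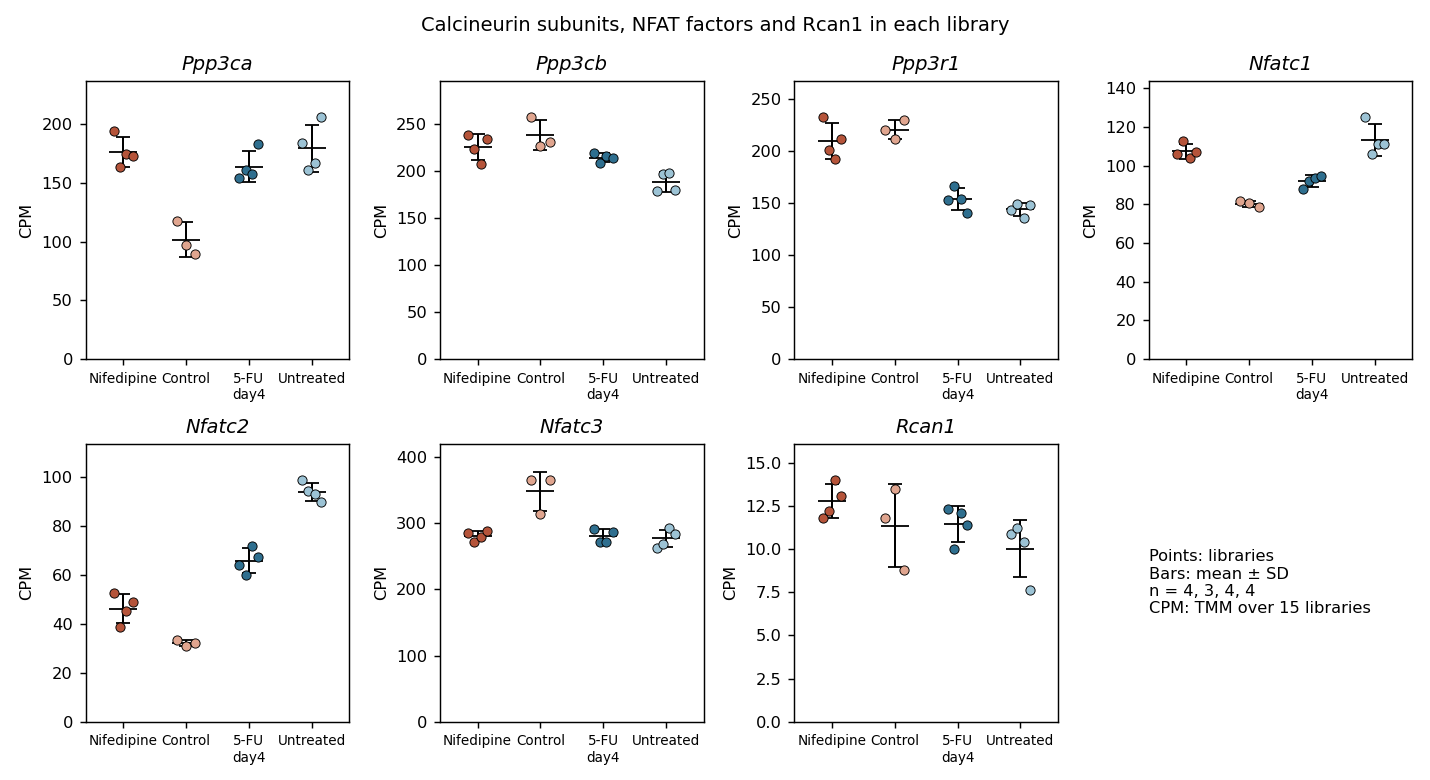
Levels of the 3 calcineurin subunits, 3 NFAT factors and Rcan1 in CPM (vertical axes, from 0) in Nifedipine (n = 4), Control (n = 3), 5-FU day4 (n = 4) and Untreated (n = 4) HSCs. Points are libraries and bars are means ± SD. Ppp3ca lies at 89.7 to 118 CPM in Control libraries and at 154 CPM or more in all others, and Nfatc2 falls into 4 ranges that do not overlap.

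Among the calcineurin subunits, the gene of the catalytic A-alpha subunit, Ppp3ca (chromosome 3, 136670066 to 136937727, mm10), was lowest in Control cells. It had 194, 164, 175 and 173 CPM in Nifedipine libraries, against 118, 97.5 and 89.7 CPM in Control libraries. It had 154, 161, 158 and 183 CPM in 5-FU day4 libraries, against 184, 161, 167 and 206 CPM in Untreated libraries. The Control range did not overlap with any other, and the other 3 groups overlapped with their neighbours in order of level. The gene of the catalytic A-beta subunit, Ppp3cb (chromosome 14, 20499364 to 20546573), had 238, 223, 207 and 234 CPM in Nifedipine libraries, against 257, 227 and 231 CPM in Control libraries. It had 219, 208, 216 and 214 CPM in 5-FU day4 libraries, against 179, 197, 198 and 179.6 CPM in Untreated libraries. All 5-FU day4 libraries were above all Untreated ones, and the cultured groups overlapped with each other. The gene of the regulatory B subunit, Ppp3r1 (chromosome 11, 17159298 to 17200380), had 232, 200.5, 192 and 211 CPM in Nifedipine libraries, against 219.8, 211 and 229 CPM in Control libraries. It had 153, 166, 154 and 140.0 CPM in 5-FU day4 libraries, against 143, 149, 135 and 148 CPM in Untreated libraries. Both cultured groups were above both groups taken from mice without culture, and within each pair the CPM ranges overlapped. By RPKM, 5-FU day4 at 15.7 to 19.1 lay above Untreated at 13.4 to 14.5. Ppp3r1 shares 462 exon bases with Wdr92 on the same strand, a gene with at most 528 reads in a library.

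NFAT factors showed 3 different orders of level. Nfatc2 (chromosome 2, 168476410 to 168601657) had 52.5, 38.6, 45.2 and 48.9 CPM in Nifedipine libraries, against 33.4, 31.0 and 32.4 CPM in Control libraries. It had 64.1, 60.2, 72.1 and 67.4 CPM in 5-FU day4 libraries, against 98.9, 94.6, 93.0 and 89.9 CPM in Untreated libraries. No library of Nfatc2 overlapped with another group, and the order from high to low was Untreated, 5-FU day4, Nifedipine, Control. Nfatc1 (chromosome 18, 80606205 to 80713071) had 106, 113, 104 and 107 CPM in Nifedipine libraries, against 81.6, 80.7 and 78.7 CPM in Control libraries. It had 88.0, 92.1, 93.8 and 94.9 CPM in 5-FU day4 libraries, against 125, 106, 111 and 111 CPM in Untreated libraries. Untreated and Nifedipine libraries of Nfatc1 overlapped at the top, 5-FU day4 lay below both and Control was lowest, with no overlap. Nfatc3 (chromosome 8, 106059584 to 106130537) had 285, 272, 279 and 288 CPM in Nifedipine libraries, against 365, 314 and 365 CPM in Control libraries. It had 291, 272, 272 and 287 CPM in 5-FU day4 libraries, against 263, 269, 292 and 283 CPM in Untreated libraries. In CPM, Control alone stood above the rest, and the other 3 groups of Nfatc3 overlapped with their neighbours. The overlaps depended on the scaling. By RPKM, Nfatc3 was at 11.5 to 13.0 in 5-FU day4, above 9.75 to 11.1 in Untreated libraries. Its Control range of 13.7 to 17.0 RPKM overlapped with 11.4 to 14.1 RPKM in Nifedipine. Nfatc1 was at 4.71 to 5.22 RPKM in Nifedipine, above 3.91 to 4.61 RPKM in Untreated libraries. Nfatc3 shares 219 exon bases with Esrp2 on the opposite strand, a gene with at most 73 reads in a library.

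Rcan1 (chromosome 16, 92391951 to 92466169) was the only member called in none of the 3 comparisons. It had 11.8, 12.2, 14.0 and 13.1 CPM in Nifedipine libraries, against 11.8, 13.5 and 8.79 CPM in Control libraries. It had 12.3, 9.99, 12.1 and 11.4 CPM in 5-FU day4 libraries, against 10.9, 11.2, 10.4 and 7.61 CPM in Untreated libraries. Neighbouring groups overlapped throughout in CPM, and these values rest on 75 to 279 reads per library. By RPKM, 5-FU day4 at 1.29 to 1.61 lay above Untreated at 0.806 to 1.22.

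Rcan1 has 2 annotated starts in the RefSeq windows, and the counts per gene do not separate transcripts from each. The downstream start is the one known as a target of calcineurin and NFAT. Its promoter, from 250 bases before to 50 after the start, is shown because Rcan1 is the textbook readout of this pathway. Capitals mark the NFAT core GGAAA on either strand (sequence from RefSeq, GRCm38.p6, the minus strand of chr16:92400029-92400328, 5′ to 3′).
Rcan1 downstream promoter: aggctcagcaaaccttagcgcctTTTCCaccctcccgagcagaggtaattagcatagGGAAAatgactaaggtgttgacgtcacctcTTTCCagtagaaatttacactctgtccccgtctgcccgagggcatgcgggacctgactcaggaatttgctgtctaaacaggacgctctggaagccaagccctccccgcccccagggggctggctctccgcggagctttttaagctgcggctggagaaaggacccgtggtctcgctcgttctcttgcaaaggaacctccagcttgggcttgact
This window held 3 NFAT cores, and 9.42% of 32851 promoter windows of the same length held at least as many. It also held the full cyclic AMP response element (CRE) TGACGTCA, found in 1.79% of windows, and an AP-1 motif TGANTCA, found in 7.81%, all searched on both strands. The window at the upstream start of Rcan1 (chr16:92466120-92466419, minus strand) held no NFAT core, CRE or AP-1 motif. A match is a description of these letters and not a bound site. Of the other members with a window, Ppp3cb held 4 NFAT cores, which 2.65% of windows equal or exceed, and the distal window of Nfatc2 (chr2:168601608-168601907, minus strand) held 3.

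**Figure D2:**
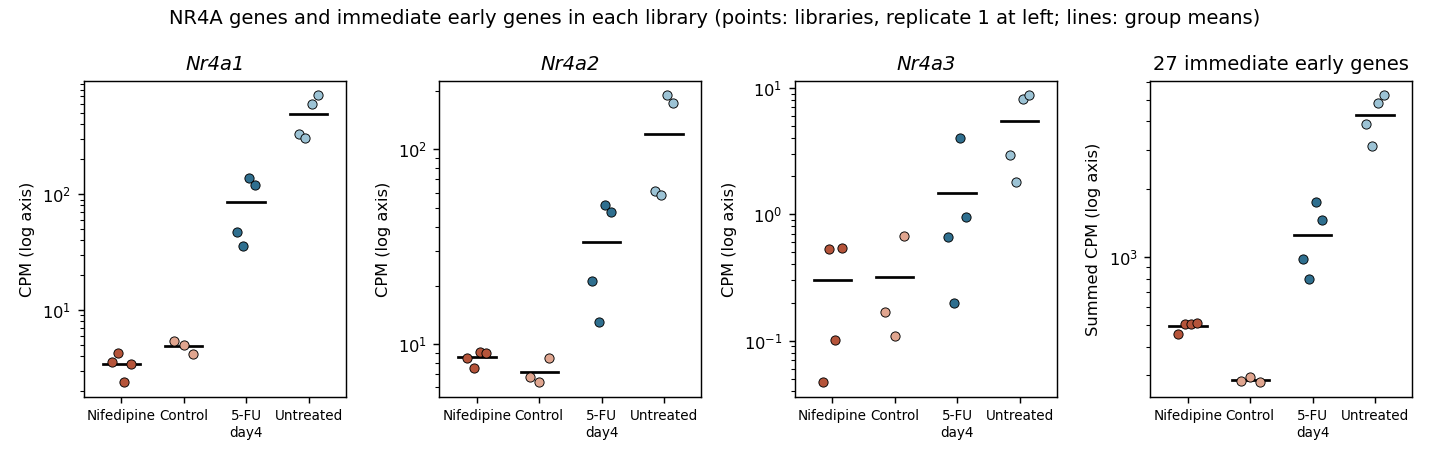
Levels of Nr4a1, Nr4a2 and Nr4a3 and the summed level of 27 immediate early genes, in CPM on log axes, in Nifedipine (n = 4), Control (n = 3), 5-FU day4 (n = 4) and Untreated (n = 4) HSCs. Points are libraries in replicate order and lines are group means. Nr4a1 lies at 2.38 to 5.41 CPM in the cultured groups, 35.7 to 137 CPM in 5-FU day4 and 307 to 712 CPM in Untreated libraries.

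NR4A genes showed the widest range of the set. Nr4a1 (chromosome 15, 101254213 to 101274795), which encodes NUR77, had 3.55, 4.27, 2.38 and 3.43 CPM in Nifedipine libraries, against 5.41, 4.96 and 4.21 CPM in Control libraries. It had 47.6, 35.7, 137 and 119 CPM in 5-FU day4 libraries, against 333, 307, 604 and 712 CPM in Untreated libraries. Every Untreated library was above every 5-FU day4 library, and those were above all cultured ones, while Nifedipine and Control overlapped. Nr4a2 (chromosome 2, 57106830 to 57124003), which encodes NURR1, had 8.54, 7.54, 9.12 and 9.06 CPM in Nifedipine libraries, against 6.81, 6.37 and 8.48 CPM in Control libraries. It had 21.0, 13.0, 52.0 and 47.4 CPM in 5-FU day4 libraries, against 61.3, 58.2, 189 and 172 CPM in Untreated libraries. The order of the Nr4a2 groups was the same as for Nr4a1 except that Nifedipine averaged above Control, with overlap. Nr4a3 (chromosome 4, 48044889 to 48086447), which encodes NOR1, was scarce. It had 0.0467, 0.526, 0.101 and 0.539 CPM in Nifedipine libraries, against 0.169, 0.109 and 0.676 CPM in Control libraries. It had 0.664, 0.198, 4.04 and 0.951 CPM in 5-FU day4 libraries, against 2.96, 1.79, 8.19 and 8.71 CPM in Untreated libraries. All neighbouring groups of Nr4a3 overlapped, and its values rest on 1 to 11 reads in Nifedipine, 2 to 13 in Control, 2 to 69 in 5-FU day4 and 12 to 143 in Untreated libraries.

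Within both groups that were not cultured, libraries 3 and 4 had more NR4A RNA than libraries 1 and 2. The 3 NR4A genes summed to 69.3, 48.8, 193 and 168 CPM in 5-FU day4 libraries 1 to 4, against 398, 367, 801 and 893 CPM in Untreated libraries 1 to 4. The 27 other immediate early genes of a companion list went the same way, with 976, 799.5, 1756 and 1466 CPM in 5-FU day4 and 3875, 3124, 4832 and 5216 CPM in Untreated libraries. The library with the least NR4A RNA in each group was also the one with the fewest exon reads, 9775640 in 5-FU day4 2 and 6171730 in Untreated 2. Untreated 2 also had the most endothelial and stromal marker RNA of its group, at 1658 CPM, and Untreated 1 had the most exon reads, at 16685285, with nearly as little NR4A RNA. The part of depth or of these markers in the NR4A levels was not tested.

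The promoters of the NR4A genes are shown because the 3 genes are compared here side by side and CREB, which binds the CRE, is a well known regulator of them. Capitals mark the CRE core TGACG, or its reverse complement CGTCA. There was 1 window per gene, from 250 bases before to 50 after a RefSeq start (GRCm38.p6, 5′ to 3′ on the strand of the gene: chr15:101266596-101266895 plus, chr2:57123954-57124253 minus and chr4:48045055-48045354 plus). The windows of Nr4a1 and Nr4a3 lie downstream of the first base of the gene given above, at 101254213 and 48044889. Sequence around those bases was not searched.
Nr4a1 promoter: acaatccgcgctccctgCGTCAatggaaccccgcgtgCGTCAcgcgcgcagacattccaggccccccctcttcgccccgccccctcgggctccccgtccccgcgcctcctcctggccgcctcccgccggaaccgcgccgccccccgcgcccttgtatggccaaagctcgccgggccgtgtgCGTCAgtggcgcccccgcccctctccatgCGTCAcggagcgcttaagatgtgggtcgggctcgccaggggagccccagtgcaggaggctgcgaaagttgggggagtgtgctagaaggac
Nr4a2 promoter: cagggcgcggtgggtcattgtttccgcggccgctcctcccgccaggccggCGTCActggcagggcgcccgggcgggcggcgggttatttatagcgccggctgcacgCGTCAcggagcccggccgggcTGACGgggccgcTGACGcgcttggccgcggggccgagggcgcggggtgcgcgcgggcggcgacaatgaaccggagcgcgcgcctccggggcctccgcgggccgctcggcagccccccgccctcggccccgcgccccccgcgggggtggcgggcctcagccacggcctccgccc
Nr4a3 promoter: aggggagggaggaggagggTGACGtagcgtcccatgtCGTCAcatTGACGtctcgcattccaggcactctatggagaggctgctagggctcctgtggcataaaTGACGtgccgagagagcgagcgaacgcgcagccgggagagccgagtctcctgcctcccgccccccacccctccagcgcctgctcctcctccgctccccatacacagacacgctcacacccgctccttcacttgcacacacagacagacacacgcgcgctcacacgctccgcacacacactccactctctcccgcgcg
Each of these windows held 4 CRE cores, and 76 of 32851 promoter windows, or 0.231%, held 4 or more, while 20.8% held at least 1. The 4 cores of Nr4a1 began at -233, -213, -69 and -40 from the start, those of Nr4a2 at -200, -144, -123 and -111, and those of Nr4a3 at -231, -213, -205 and -147. A full CRE counts as a core on each strand. The windows of the 3 genes held no full CRE, no AP-1 motif, no CArG box of serum response factor (in 1.63% of all windows) and no NBRE, the element AAAGGTCA that NR4A proteins themselves bind (1.51%). The MEF2 consensus, in its form with a pyrimidine at the start and a purine at the end, stood 1 time in the Nr4a2 window, beginning at -167, and in 3.19% of all windows, while the windows of Nr4a1 and Nr4a3 held no match. Nr4a2 held 1 NFAT core, an element that 61.3% of all windows hold at least once, and Nr4a1 and Nr4a3 held none.

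**Figure D3:**
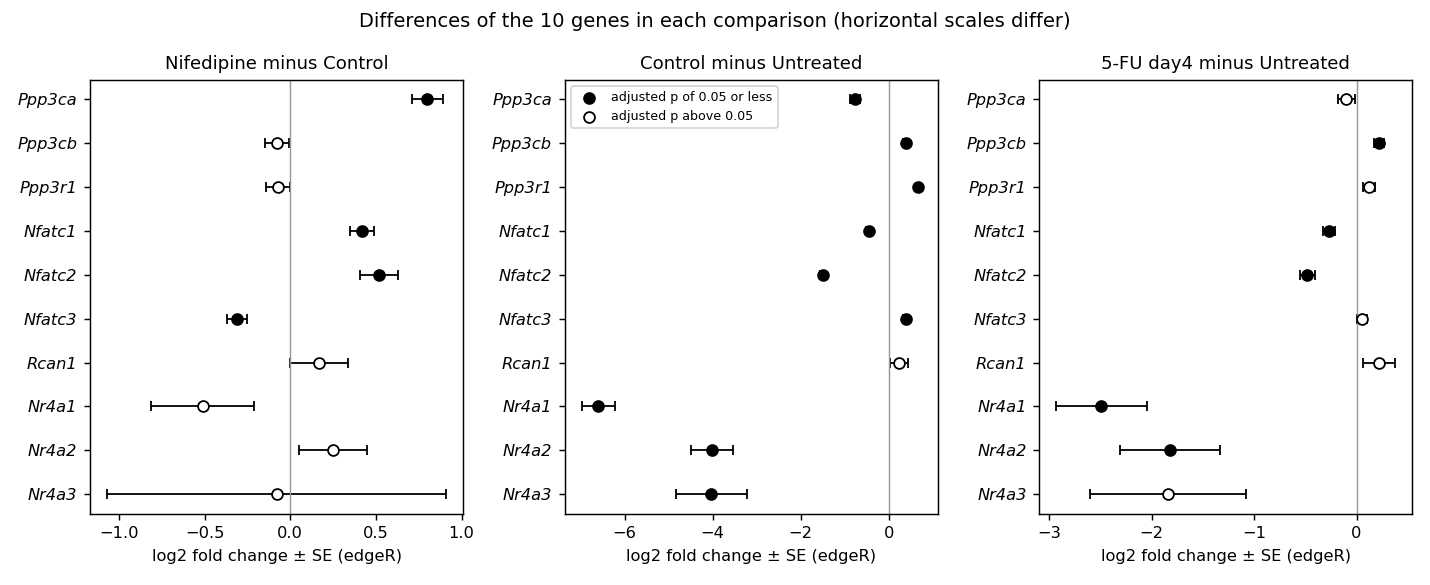
Differences of the 10 genes as log2 fold change ± SE (horizontal axes, whose scales differ between panels) for Nifedipine minus Control (n = 4 and 3), Control minus Untreated (n = 3 and 4) and 5-FU day4 minus Untreated (n = 4 and 4). Filled points have an adjusted p of 0.05 or less. Ppp3ca is furthest right for Nifedipine minus Control at 0.80, and Nr4a1 is furthest left in the other panels at -6.60 and -2.49.

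The comparison of 5-FU day4 with Untreated HSCs asks what changes in HSCs early after myeloablation. Nr4a1 and Nr4a2 fell. Nr4a1 averaged 85.0 ± 50.8 CPM in 5-FU day4 and 489 ± 200.4 CPM in Untreated libraries (SD, n = 4 each), a 5.63-fold lower level (log2 fold change -2.49 ± 0.44 SE, edgeR adjusted p = 0.000831). Nr4a2 averaged 33.3 ± 19.3 CPM in 5-FU day4 and 120.1 ± 70.0 CPM in Untreated libraries, 3.52-fold lower (-1.82 ± 0.49 SE, adjusted p = 0.0104). Nr4a3 averaged 1.46 ± 1.74 CPM in 5-FU day4 and 5.41 ± 3.55 CPM in Untreated libraries, and its log2 fold change of -1.84 ± 0.76 SE did not pass the test (adjusted p = 0.0664). It passed without Untreated 2 (-2.10, adjusted p = 0.0445), without 5-FU day4 3 (-3.09, adjusted p = 0.00598), with DESeq2 (-1.86, adjusted p = 0.0173) and with limma-voom (-2.30, adjusted p = 0.0341). Those 2 libraries were the lowest of Untreated, at 1.79 CPM, and the highest of 5-FU day4, at 4.04 CPM. The other edgeR fits without a single library did not pass, with adjusted p of 0.0669 to 0.162. Nor did the fit without both Untreated 3 and 5-FU day4 4 (-1.41, adjusted p = 0.218).

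Among the NFAT factors, Nfatc2 fell by 0.48 on the log2 scale (± 0.07 SE, adjusted p = 0.000191) and Nfatc1 fell by 0.27 (± 0.06 SE, adjusted p = 0.00386). Nfatc3 differed by 0.05 ± 0.05 SE (adjusted p = 0.434). Of the calcineurin genes, Ppp3cb rose by 0.22 ± 0.05 SE (adjusted p = 0.00604), while Ppp3ca at -0.10 ± 0.08 SE (adjusted p = 0.329) and Ppp3r1 at 0.12 ± 0.06 SE (adjusted p = 0.127) did not pass. Ppp3r1 passed without 5-FU day4 4, at 0.17 (adjusted p = 0.0453). Rcan1 did not pass either, at 0.22 ± 0.16 SE (adjusted p = 0.285). In all, 1 member was called higher and 4 lower, and the ranges of 5 did not overlap. Over all genes tested 50.5% were called, 26.8% higher and 23.8% lower, and 47.4% had ranges that did not overlap, so the count of members called was near the background. The median log2 fold change was -0.19 over the members and -0.02 over all genes. Nr4a1 lay at percentile 0.994 of all log2 fold changes and Nr4a2 at 2.32. Without both Untreated 3 and 5-FU day4 4, 1 member was called higher and 4 lower, with Nr4a1 at -2.58 and Nr4a2 at -1.72. With library sizes set to the read total that underlies the RPKM values, Nfatc1 was at -0.07 (adjusted p = 0.37), and Ppp3r1 at 0.32 (adjusted p = 0.00208) and Nfatc3 at 0.25 (adjusted p = 0.00515) passed. The summed level of 12 T-cell and NK-cell markers was 22.8 to 28.8 CPM in 5-FU day4 and 42.7 to 50.7 CPM in Untreated libraries. Cd3e, Cd3g, Trac and Ncr1 were at 0, and the reads came from other markers of the list, among them Cd247, Klrb1c, Lck and Nkg7. The part of these markers in the difference of Nfatc2 was not tested.

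The comparison of Control with Untreated HSCs sets cultured cells against cells taken from mice, and culture and experiment cannot be told apart in it. It shares the Untreated libraries with the 5-FU day4 comparison. Nr4a1 was 96.7-fold lower in Control than in Untreated libraries (log2 fold change -6.60 ± 0.38 SE, adjusted p = 3.23e-07), at 4.86 ± 0.606 CPM in Control (n = 3) and 489 ± 200.4 CPM in Untreated libraries (n = 4). Nr4a2 was 16.1-fold lower (-4.01 ± 0.48 SE, adjusted p = 4.52e-05). Nr4a3 was also lower (-4.03 ± 0.80 SE, adjusted p = 0.00133), from 19 reads over the 3 Control libraries and 342 reads over the 4 Untreated libraries, and it was at -5.14 without Control 3. Every member except Rcan1 was called. Nfatc2 was 2.81-fold lower (-1.49 ± 0.07 SE, adjusted p = 1.49e-07), Ppp3ca 1.71-fold lower (-0.77 ± 0.11 SE, adjusted p = 0.000195) and Nfatc1 1.36-fold lower (-0.44 ± 0.07 SE, adjusted p = 0.000296). Ppp3r1 was 1.59-fold higher (0.67 ± 0.06 SE, adjusted p = 8.04e-06). Ppp3cb (0.39 ± 0.07 SE, adjusted p = 0.000579) and Nfatc3 (0.39 ± 0.07 SE, adjusted p = 0.000725) were each 1.31-fold higher. Rcan1 was at 0.23 ± 0.21 SE (adjusted p = 0.341). In all, 3 members were higher and 6 lower, and the ranges of 9 did not overlap, where 72.0% of all genes tested were called, 35.8% higher and 36.2% lower, and 72.0% had ranges that did not overlap. The median was -0.61 over the members and -0.05 over all genes. Without Untreated 3 the counts were again 3 higher and 6 lower. Some marker lists of other cell types were lower in Control too. Endothelial and stromal sums were 18.5 to 22.9 CPM in Control and 57.8 to 1658 CPM in Untreated libraries. T-cell and NK-cell sums were 20.3 to 27.6 CPM in Control and 42.7 to 50.7 CPM in Untreated libraries. B-cell sums were 6.40 to 6.98 CPM in Control and 16.7 to 30.4 CPM in Untreated libraries. Granulocyte, monocyte and macrophage markers summed to 62.2 to 80.5 CPM in Control and 149.7 to 189 CPM in Untreated libraries. Other lists did not follow. Megakaryocyte sums overlapped, at 276 to 446 CPM in Control and 316 to 411 CPM in Untreated libraries. Erythroid sums were 207 to 259.7 CPM in Control, within the Untreated range of 70.7 to 1893 CPM. Mast cell and basophil sums were higher in Control, at 1.40 to 2.18 CPM against 0.597 to 0.910 CPM in Untreated libraries. The part of these markers in the differences of the members was not tested. With an offset for exon length, Nfatc1 was at -0.13 (adjusted p = 0.126).

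The comparison of Nifedipine with Control HSCs asks what blocking L-type calcium channels changes in cultured HSCs that divided few times. Ppp3ca and the NFAT genes changed, and the NR4A genes did not pass the test. Ppp3ca was 1.74-fold higher with nifedipine, at 177 ± 12.8 CPM in Nifedipine (n = 4) and 102 ± 14.4 CPM in Control libraries (n = 3; log2 fold change 0.80 ± 0.09 SE, adjusted p = 7.26e-07). Nfatc2 was 1.44-fold higher, at 46.3 ± 5.93 CPM in Nifedipine and 32.3 ± 1.20 CPM in Control libraries (0.52 ± 0.11 SE, adjusted p = 0.000667). Nfatc1 was 1.34-fold higher, at 107 ± 3.91 CPM in Nifedipine and 80.3 ± 1.51 CPM in Control libraries (0.42 ± 0.07 SE, adjusted p = 8.26e-05). Nfatc3 was 1.24-fold lower, at 281 ± 6.96 CPM in Nifedipine and 348 ± 29.5 CPM in Control libraries (-0.31 ± 0.06 SE, adjusted p = 0.000544). For these 4 genes the Nifedipine and Control ranges did not overlap, as in 51.2% of all genes tested. The Control libraries are shared with the comparison of Control with Untreated, where Ppp3ca was at -0.77, Nfatc2 at -1.49, Nfatc1 at -0.44 and Nfatc3 at 0.39.

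The other members did not pass the test. Ppp3cb was at -0.08 ± 0.07 SE (adjusted p = 0.34), Ppp3r1 at -0.07 ± 0.07 SE (adjusted p = 0.405) and Rcan1 at 0.17 ± 0.17 SE (adjusted p = 0.449). Nr4a1 was at -0.51 ± 0.30 SE (adjusted p = 0.168) and Nr4a2 at 0.25 ± 0.20 SE (adjusted p = 0.318). Nr4a3, with 23 reads over the 4 Nifedipine libraries and 19 over the 3 Control libraries, was at -0.08 ± 0.99 SE (adjusted p = 0.958), so that a difference was not detectable at this depth. In all, 3 members were higher and 1 lower, and 4 had ranges that did not overlap. Over all genes tested 49.9% were called, 25.8% higher and 24.2% lower, so these counts were near or below the background. The median was 0.05 over the members and 0.02 over all genes. The 12 granulocyte, monocyte and macrophage markers summed to 210.5 to 233 CPM in Nifedipine and 62.2 to 80.5 CPM in Control libraries, and the 12 HSC markers to 2699.5 to 2986 CPM in Nifedipine and 1785 to 1837 CPM in Control libraries. Lyz2 made up nearly all of the granulocyte, monocyte and macrophage sum, at 216 CPM in Nifedipine and 67.5 CPM in Control libraries on average. Mpo, Elane, S100a8 and S100a9 were at 0 in both groups, and Ctsg, Ltf, Ly6g and Adgre1 were also at 0 in Control. Sums of some other lists were lower with nifedipine. T-cell and NK-cell markers summed to 10.2 to 12.3 CPM in Nifedipine and 20.3 to 27.6 CPM in Control libraries. Erythroid markers summed to 106 to 165 CPM in Nifedipine and 207 to 259.7 CPM in Control libraries. Hbb-bt made up most of that sum, at 132 and 216 CPM on average, while Alas2 went the other way, at 7.64 and 5.77 CPM. Megakaryocyte markers summed to 132 to 268 CPM in Nifedipine and 276 to 446 CPM in Control libraries. Mast cell and basophil markers summed to 0.140 to 1.05 CPM in Nifedipine and 1.40 to 2.18 CPM in Control libraries. Endothelial and stromal sums were higher with nifedipine, at 24.0 to 31.6 CPM against 18.5 to 22.9 CPM in Control libraries. Emcn was the largest part of them, at 17.1 CPM in Nifedipine and 10.1 CPM in Control on average. Kdr went the other way, at 3.25 and 4.83 CPM, and Cxcl12, Col3a1 and Dcn were at 0 in both groups. B-cell sums overlapped, at 6.37 to 9.66 CPM in Nifedipine and 6.40 to 6.98 CPM in Control libraries. The part of these markers in the differences of Ppp3ca and the NFAT genes was not tested.

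**Figure D4:**
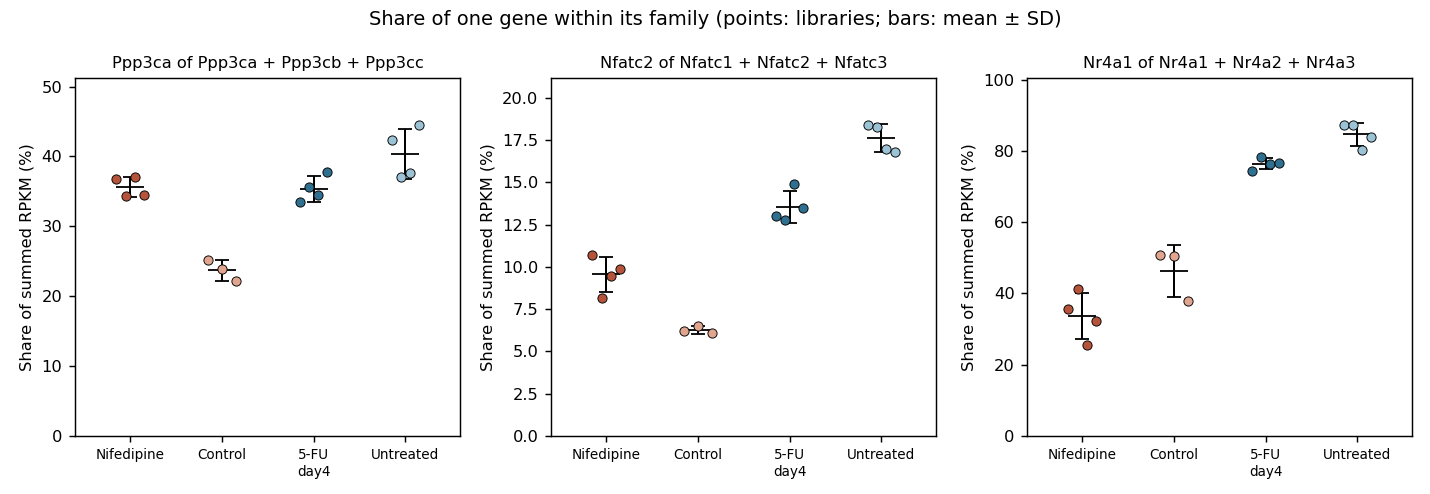
Share of Ppp3ca in the summed RPKM of the 3 catalytic calcineurin genes, of Nfatc2 in that of Nfatc1, Nfatc2 and Nfatc3, and of Nr4a1 in that of the 3 NR4A genes, in percent (vertical axes, from 0). Points are libraries and bars are means ± SD for Nifedipine (n = 4), Control (n = 3), 5-FU day4 (n = 4) and Untreated (n = 4). The Nr4a1 share averages 33.6% and 46.4% in the cultured groups and 76.5% and 84.7% in the others.

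The makeup of each family was followed as a share of its summed RPKM, which does not depend on the scaling of a library. Ppp3ca made up 35.7 ± 1.45% of the catalytic A subunit RNA in Nifedipine and 23.7 ± 1.49% in Control libraries, and 35.3 ± 1.85% in 5-FU day4 and 40.4 ± 3.63% in Untreated libraries (SD). Nfatc2 made up 9.54 ± 1.04% of the RNA of the 3 NFAT factors in Nifedipine and 6.26 ± 0.223% in Control libraries, and 13.5 ± 0.936% in 5-FU day4 and 17.6 ± 0.861% in Untreated libraries. Nr4a1 made up 33.6 ± 6.53% of NR4A RNA in Nifedipine and 46.4 ± 7.35% in Control libraries, and 76.5 ± 1.57% in 5-FU day4 and 84.7 ± 3.32% in Untreated libraries. Mean RPKM was higher for Nr4a2 than for Nr4a1 in both cultured groups, at 0.443 against 0.231 in Nifedipine and 0.361 against 0.323 in Control libraries. In Control this rested on Control 3, at 0.429 for Nr4a2 and 0.284 for Nr4a1. Nr4a1 was slightly higher in Control 1, at 0.368 against 0.348, and in Control 2, at 0.316 against 0.306. In both groups that were not cultured, mean RPKM was higher for Nr4a1. Over 9 exact two-sided permutation tests of these shares, the adjusted p lay between 0.0735 and 0.114. The smallest p the design allows is 0.0286 for 4 against 4 libraries and 0.0571 for 4 against 3. The 5-FU day4 and Untreated ranges did not overlap for Nr4a1 or Nfatc2 and overlapped for Ppp3ca. The Nifedipine and Control ranges did not overlap for Ppp3ca or Nfatc2 and overlapped for Nr4a1.

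Around calcineurin, a list of 14 other genes held the remaining subunits, the immunophilins and further regulators. Of those tested, 6 rose and 1 fell of 12 in 5-FU day4 against Untreated, 7 rose and 3 fell of 12 in Control against Untreated, and 2 rose and 4 fell of 11 in Nifedipine against Control. Of all genes tested, 50.5%, 72.0% and 49.9% were called in these comparisons, so the counts of this list lay near the background. Their median log2 fold change was 0.27, 0.50 and -0.19 in these comparisons, and that of all genes was -0.02, -0.05 and 0.02. Ppp3cc, the third catalytic subunit, rose with nifedipine as Ppp3ca did, to 12.1 ± 1.01 CPM in Nifedipine, against 4.24 ± 0.448 CPM in Control libraries (log2 fold change 1.51 ± 0.19 SE, adjusted p = 3.86e-06). Ppp3r2, the second regulatory subunit, had 2 reads in Nifedipine, 14 in Control, 2 in 5-FU day4 and 0 in Untreated libraries in all, so nearly all B subunit RNA came from Ppp3r1. Ppia, which encodes cyclophilin A, the partner through which cyclosporin inhibits calcineurin, rose after 5-FU (1.02 ± 0.07 SE, adjusted p = 2.96e-06) and in Control against Untreated (1.88 ± 0.07 SE, adjusted p = 3.33e-08), and fell with nifedipine (-0.51 ± 0.07 SE, adjusted p = 4.37e-06). Of the relatives of Rcan1, Rcan3 exceeded it per exon length, at 3.04 ± 0.494 RPKM beside 1.09 ± 0.192 RPKM for Rcan1 in Untreated libraries, and Rcan2 averaged at most 0.213 RPKM in any group. Rcan3 had 69.9 ± 7.81 CPM in Nifedipine and 66.5 ± 1.97 CPM in Control libraries, and 64.5 ± 4.15 CPM in 5-FU day4 and 56.7 ± 8.74 CPM in Untreated libraries.

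Around NFAT, a list of 20 other family members, NFAT kinases and nuclear export genes was mixed in direction. Of those tested, 5 rose and 6 fell of 20 in 5-FU day4 against Untreated, 7 rose and 7 fell of 20 in Control against Untreated, and 5 rose and 5 fell of 19 in Nifedipine against Control, with medians of -0.10, 0.07 and -0.09. Those counts too lay near the 50.5%, 72.0% and 49.9% of all genes that were called. Nfat5, the family member that lacks the calcineurin docking region, had 728 ± 19.8 CPM in Nifedipine, 502 ± 25.5 CPM in Control, 749.8 ± 26.5 CPM in 5-FU day4 and 1231 ± 27.1 CPM in Untreated libraries, the same order of group means as Nfatc2. It fell after 5-FU (-0.69 ± 0.04 SE, adjusted p = 1.56e-06) and rose with nifedipine (0.54 ± 0.05 SE, adjusted p = 2.83e-07), as Nfatc1 and Nfatc2 did. Nfatc4 was scarce, at 0.0928 RPKM or less on average. Xpo1, which encodes the exportin that carries NFAT out of the nucleus, rose after 5-FU (0.99 ± 0.09 SE, adjusted p = 1.28e-05) and fell with nifedipine (-0.70 ± 0.05 SE, adjusted p = 1.22e-08). Among 9 other transcription regulators that calcineurin dephosphorylates, 5 of 8 tested fell after 5-FU, where 23.8% of all genes fell. The list median was -0.21 and that of all genes -0.02. Among those that fell was Crtc1 (-0.46 ± 0.10 SE, adjusted p = 0.00345), which encodes a coactivator of CREB. Of the 8, 2 fell after 5-FU without both Untreated 3 and 5-FU day4 4. In Control against Untreated 1 rose and 4 fell of 8, where 35.8% of all genes rose and 36.2% fell, with a list median of -0.25. In Nifedipine against Control 1 rose and 1 fell of 8, where 25.8% of all genes rose and 24.2% fell, with a list median of -0.07.

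**Figure D5:**
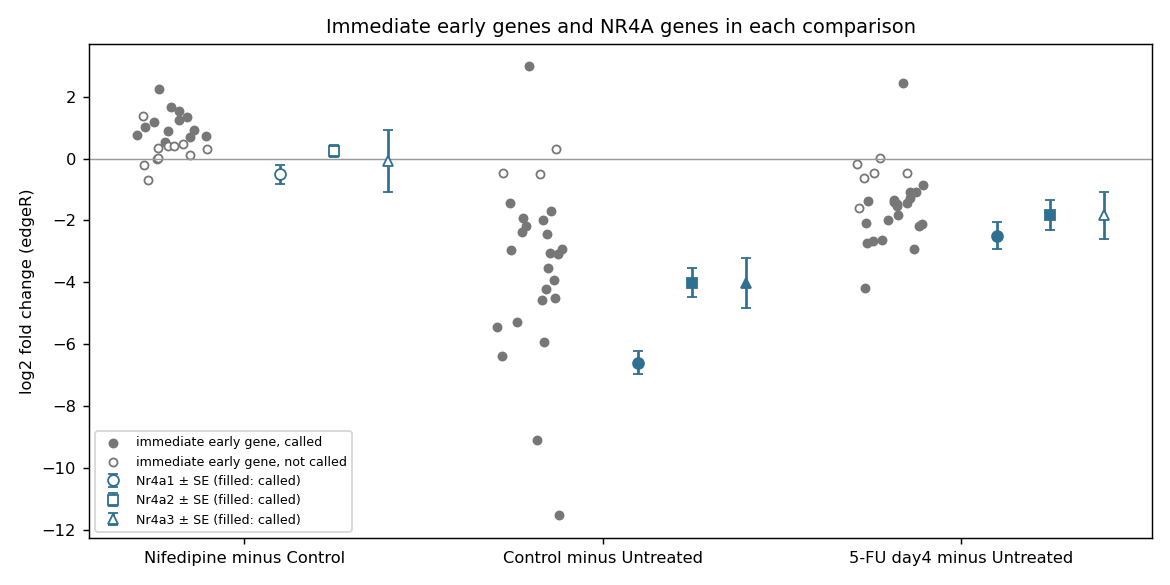
Log2 fold changes (vertical axis) of 27 other immediate early genes (grey points, filled when called, spread sideways for visibility) beside Nr4a1, Nr4a2 and Nr4a3 (blue, ± SE) in 3 comparisons. Genes without enough reads for the test are left out, as is Egr3 for Control minus Untreated, where all Control libraries were at 0. The immediate early genes lie mostly below 0 against Untreated libraries, like the NR4A genes, and mostly above 0 for Nifedipine minus Control, where the NR4A points lie around 0.

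Other immediate early genes moved with the NR4A genes against Untreated cells. Of 27 genes, 20 fell and 1 rose in 5-FU day4 against Untreated, with a median log2 fold change of -1.42, where 23.8% of all genes fell. In Control against Untreated 23 fell and 1 rose, with a median of -3.04, where 36.2% of all genes fell. After 5-FU the fall was steep for Btg2, an antiproliferative gene, at 10.5 ± 3.85 CPM in 5-FU day4 and 199 ± 58.2 CPM in Untreated libraries (-4.19 ± 0.27 SE, adjusted p = 2.92e-06), and for the zinc finger factor Egr1 (-2.63 ± 0.21 SE, adjusted p = 7.94e-06). The gene that rose in both was Fosl1, at 2.45 after 5-FU (adjusted p = 0.00442) and 2.98 in Control against Untreated (adjusted p = 0.00262), which was chosen after its values were seen. Egr3 had 0 reads in the 3 Control libraries and averaged 122 CPM in Untreated libraries, so it was at least 2490.3-fold lower in Control when 3 reads over the whole group are taken as the floor. In Nifedipine against Control, 13 of 24 genes tested rose and 11 did not pass, with a median of 0.72 against 0.02 over all genes, where 49.9% of all genes were called and 25.8% rose. In the same comparison Nr4a1 was at -0.51 and Nr4a2 at 0.25. The summed level of the list was 455, 503, 505 and 509 CPM in Nifedipine libraries, against 281, 294 and 278 CPM in Control libraries, while NR4A RNA summed to 12.1, 12.3, 11.6 and 13.0 CPM in Nifedipine libraries, against 12.4, 11.4 and 13.4 CPM in Control libraries. The list sums did not overlap between the groups and the NR4A sums did. Among those that rose were Ptgs2, which encodes cyclooxygenase-2 (2.24 ± 0.21 SE, adjusted p = 1.12e-07), and the zinc finger factor Klf6 (1.34 ± 0.10 SE, adjusted p = 8.53e-09).

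Genes most like Nr4a1 over the 15 libraries were sought by the root mean square difference of log2 CPM, each gene centred on its own mean, among 9285 genes with a mean of at least 10 CPM. Nr4a1 itself varied with an SD of 3.07 on that scale. The 5 closest were Zfp618 at 0.80, the phosphatase gene Dusp1 at 0.82, the zinc finger factor Klf2 at 0.87, the muscle glycogen phosphorylase gene Pygm at 0.88 and Adam11 at 0.93. Dusp1 averaged 8.59 CPM in Nifedipine, 6.44 CPM in Control, 99.0 CPM in 5-FU day4 and 265 CPM in Untreated libraries. For Rcan1, whose SD was 0.23, the 5 closest were Wdr59, Heatr6 and Acd at 0.14 and Tank and Kctd17 at 0.15. These are genes that vary as little as Rcan1, and the likeness is a description of these libraries.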

How the data were processed

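RNA was measured in 15 libraries of sorted mouse HSCs. Per the labels' protocols, complementary DNA of 100 cells was turned into libraries by a Nextera XT method. That method keeps no strand, so reads of overlapping genes on opposite strands cannot be told apart. The aligner and the counter were not given in the sources used here. Per the submitters' processing notes, the build was mm10. The deposited table of each library gives whole-number counts of exon reads and the RPKM value that the authors computed from them, per the file headers. Sample titles gave each library's group and number.

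Entries of 1 gene on alternate scaffolds were added up, which joined 4516 copies of 1913 genes, none of them a member. The counts were tested in edgeR 4.0.16 (R 4.3.3, limma 3.58.1) with TMM factors, filterByExpr and the quasi-likelihood F test, each comparison on its own libraries. Adjusted p-values are Benjamini-Hochberg values over all genes tested, and a gene was called, or said to rise or fall, at 0.05 or less. DESeq2 1.42.0, limma-voom and other scalings, filters and sample choices served as alternatives. CPM used TMM factors over all 15 libraries. RPKM served to compare genes within a library, since exon reads were 31.8% to 38.4% of the read total behind it in Nifedipine, 35.5% to 38.9% in Control, 30.0% to 31.9% in 5-FU day4 and 25.0% to 26.3% in Untreated libraries. Shares were tested by exact permutation in SciPy 1.17.1. The scripts were tested on simulated data. No pair of libraries within a group agreed within sampling noise. Promoter windows were taken from RefSeq (GRCm38.p6), in which 8 of the 10 members matched, with 11 windows.

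The members and companion lists were chosen with earlier results of these data known. Named are all members, the 3 called genes of smallest p per list and comparison from which examples were taken, and the 5 genes closest to Nr4a1 and to Rcan1. Family members outside these were given as levels, chosen after their values were seen. The values of 1 gene of the companion lists are not reported here.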

Additional observations from a re-analysis of the deposited data

How the results depend on the processing

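Calls of members held in most alternatives. Over the values of single members, 508 alternatives kept direction and side of the threshold, 9 passed where the value as reported did not, 2 no longer passed and 4 changed sign. With library sizes set to the read total that underlies the RPKM values, the median log2 fold change of all genes in 5-FU day4 minus Untreated shifted by 0.20, 1844 genes were called lower and 5149 higher instead of 3184 and 3580, or 73.6% higher among those called instead of 52.9%, 3 members were called higher instead of 1, and Ppp3ca was at 0.10. In Control minus Untreated the same choice shifted the median by 0.24, with 5835 genes higher and 3877 lower, or 60.1% higher instead of 49.8%. With exon length offsets 2 members were called higher after 5-FU, Nfatc3 with 0.16 (adjusted p = 0.0315) among them. Leaving out single libraries gave 1 to 2 members higher and 4 to 5 lower after 5-FU. Such fits put Nr4a3 for Nifedipine minus Control between -0.46 and 1.06, with changed signs without Control 3 (1.06), Nifedipine 1 (0.29) and Nifedipine 3 (0.21). Why these values moved was not tested.

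Over all genes kept, the replicate numbers gave no sign of pairing. Same-numbered libraries of 5-FU day4 and Untreated had correlations of -0.02, -0.15, 0.08 and 0.15 in their deviations, and those of Nifedipine and Control 0.01, 0.03 and 0.00. Such correlations cannot decide on pairing for single genes. With a replicate block, 3395 genes were higher and 2937 lower after 5-FU, and Nr4a3 was at -2.19 (adjusted p = 0.00538), which made 5 members lower. The block changed no other call of a member. After 5-FU it put Nr4a1 at -2.61 ± 0.14 SE, where the SE was 0.44 without it. Nr4a2 was at -1.81 ± 0.10 SE, where the SE was 0.49 without it. Whether the numbers pair the samples for the NR4A genes was not tested. Depth limited Nr4a3 most, with 3 reads or fewer in 2 Nifedipine, 1 Control and 1 5-FU day4 libraries.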

Other observations

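Genes that NFAT is known to switch on in lymphocytes formed a list of 20, of which 9 or fewer had enough reads to be tested. In 5-FU day4 against Untreated, 5 of 9 fell and 1 rose, and in Control against Untreated 7 of 9 fell and 1 rose. In Nifedipine against Control 2 of 8 rose and 6 did not pass, and 50.5%, 72.0% and 49.9% of all genes were called in these 3 comparisons. The median log2 fold changes of the list were -0.86, -1.98 and 0.38 in these comparisons, and those of all genes -0.02, -0.05 and 0.02. Cd69, an early activation marker, had 12.0 ± 1.58 CPM in 5-FU day4 and 23.9 ± 5.35 CPM in Untreated libraries (log2 fold change -0.96 ± 0.18 SE, edgeR adjusted p = 0.0011), and 19.3 ± 3.53 CPM in Nifedipine and 4.23 ± 0.621 CPM in Control libraries (2.20 ± 0.19 SE, adjusted p = 5.07e-08). Tox, a nuclear factor of T-cell exhaustion, had 11.2 ± 1.68 CPM in Control and 56.0 ± 15.6 CPM in Untreated libraries (-2.27 ± 0.22 SE, adjusted p = 1.08e-05). Egr2, Egr3 and Ptgs2 of this list are also in the immediate early list.

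Of 12 tested partners and reported targets of NR4A receptors, 6 fell and 2 rose after 5-FU, where 23.8% of all genes fell and 26.8% rose. In Control against Untreated 7 fell and 1 rose, where 36.2% of all genes fell and 35.8% rose. With nifedipine 2 rose and 2 fell, where 25.8% of all genes rose and 24.2% fell. The list medians were -0.75, -2.09 and 0.11 in these comparisons, and those of all genes -0.02, -0.05 and 0.02. The cell cycle factor E2f1 had 36.6 ± 3.73 CPM in 5-FU day4 and 13.7 ± 2.76 CPM in Untreated libraries (1.44 ± 0.15 SE, adjusted p = 3.64e-05), and 39.5 ± 3.88 CPM in Nifedipine and 61.6 ± 1.92 CPM in Control libraries (-0.64 ± 0.10 SE, adjusted p = 2.19e-05). Txnip, which binds thioredoxin, had 261 ± 15.1 CPM in Nifedipine and 84.4 ± 1.63 CPM in Control libraries (1.63 ± 0.07 SE, adjusted p = 9.59e-12), and 1214 ± 344 CPM in Untreated libraries. Rxra, the retinoid receptor with which NR4A1 and NR4A2 pair, had 7.85 ± 0.274 CPM in Control and 30.6 ± 4.60 CPM in Untreated libraries (-1.91 ± 0.16 SE, adjusted p = 3.2e-06).

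Of 16 upstream regulators of NR4A transcription, 4 rose and 5 fell after 5-FU, 3 rose and 7 fell in Control against Untreated, and 6 rose and 3 fell with nifedipine, with medians of 0.06, -0.13 and 0.04. The medians of all genes were -0.02, -0.05 and 0.02, and the counts lay near or below the 50.5%, 72.0% and 49.9% of all genes that were called. Without both Untreated 3 and 5-FU day4 4, 4 rose and 3 fell after 5-FU. Camk2d, a calcium and calmodulin dependent kinase, had 101 ± 8.54 CPM in Nifedipine and 31.9 ± 2.23 CPM in Control libraries (1.66 ± 0.09 SE, adjusted p = 2.28e-10), and 179.7 ± 7.27 CPM in Untreated libraries. Hdac9, a class IIa deacetylase that represses MEF2 targets, rose after 5-FU (1.16 ± 0.09 SE, adjusted p = 8.26e-06) and with nifedipine (1.01 ± 0.12 SE, adjusted p = 1.18e-06). No group of 4 libraries held a member level far enough from the rest to be singled out, over 30 groups.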
